A study of Mus musculus with 9 samples.

Results

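The enzymes that build and sulfate glycosaminoglycan chains were followed in tomato-positive cells of the mouse tibial periosteum, before and after fracture. The set holds 40 genes, listed by function: sulfate supply, UDP-sugar supply, the linker to the core protein, chondroitin and heparan chain synthesis, and chain sulfation. A gene was read from the array probes whose platform annotation carries its symbol. Of the 40 genes, 35 had a probe, and 28 of those were detected on at least 3 of 9 arrays and entered the test, out of 10073 genes tested in all. Chpf2, Chst13, Ndst1, Ndst2 and Sulf2 were matched to no probe and are not analysed here. Ugdh, Uxs1, Xylt1, Csgalnact2, Dse, Hs6st2 and Glce had a probe but were detected on fewer than 3 arrays. Impad1 stands in the platform annotation under its newer symbol Bpnt2.

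Total RNA came from αSMACreERT2/Ai9 mice of strain B6;129S6, in which the alpha smooth muscle actin promoter drives a tamoxifen-activated Cre and the Ai9 reporter leaves recombined cells and their progeny tomato-positive. The 3 groups were unfractured tibiae, fractured tibiae at day 2 and fractured tibiae at day 6, with 3 pools each and 1 Illumina bead array per pool. Animals of all 3 groups, unfractured ones included, received tamoxifen in 2 doses (75 µg per g); their ages ran from 2 to 5.5 months. The unfractured pools were collected 2 days after tamoxifen, so day 6 differs from them in the time since labelling as well as in the fracture, and these cannot be told apart. A pool held 8 to 9 animals in the unfractured group, 7 to 8 at day 2 and 4 to 8 at day 6, with 2 male pools and 1 female pool in every group.

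Glycosaminoglycans are long sugar chains carried by proteoglycans. A short linker of xylose, galactose and glucuronic acid is first built on a serine of the core protein, and the next sugar added commits the chain to chondroitin or to heparan sulfate. Sulfate is taken up by transporters, activated to the donor PAPS and placed on the growing chain in the Golgi, which is why cartilage, whose matrix holds much sulfated aggrecan, is sensitive to loss of sulfate supply.

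The arrays detected between 40.4% and 55.2% of 25697 probes, with the lowest share in an unfractured pool. Detected means a detection p under 0.05 in the deposited files. In all 9 pools Acta2, which encodes the actin whose promoter labels the cells, had a log2 intensity of 14.09 to 16.09. The 9 smooth muscle and pericyte genes averaged 9.56 to 10.07 in the day 6 pools and 10.40 to 12.48 in the unfractured pools, and the 9 periosteal mesenchyme genes 11.49 to 11.86 and 11.10 to 11.36. Macrophage and pan-leukocyte transcripts (16 measured genes) were high in 1 pool of each group, namely unfractured replicate 3 (mean log2 intensity 11.18), replicate 1 of day 2 (12.41) and replicate 1 of day 6 (10.86), against 7.17 to 8.58 in the other pools. These are called the leukocyte-rich pools below, a division known from earlier results of these data, and the values are given with and without them. The 11 neutrophil genes did not follow that division. Their mean was 12.45, 14.10 and 12.28 in the leukocyte-rich pools of unfractured, day 2 and day 6 tibiae, but also 12.39 in unfractured replicate 1, which is kept among the other pools, against 9.72 to 10.54 in the remaining 5. The RNA is that of whole sorted pools, so more cells of a type and more RNA per cell cannot be told apart.

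At day 6 against unfractured, 7 of the 28 tested enzymes rose and 0 fell, while 2.19% of all genes tested rose and 0.625% fell (limma, Benjamini-Hochberg adjusted p under 0.05 over all 10073 genes). The 7 were Papss2, Slc26a2 and Impad1 of sulfate supply, the linker galactosyltransferase B4galt7, the chondroitin synthase Chsy1, the chondroitin 4-O-sulfotransferase Chst11 and Extl1, a relative of the heparan sulfate polymerases. All 3 day 6 pools lay above all 3 unfractured pools for 14 of the 28 enzymes and below them for 2, against 14.2% and 11.8% of all genes. The log2 change was above 0 for 23 of the 28, as for 52.6% of all genes, and an unadjusted limma p under 0.05 was found for 15 of 28 and 21.0% of all genes. The median log2 change of the 28 was 0.75, beside 0.04 over all genes. Slc26a2 and Extl1 passed the detection filter through the day 6 pools alone, so a difference in these genes was a condition of their being tested; among the 21 enzymes whose probes were detected on all 9 arrays, 3 rose (B4galt7, Chsy1 and Impad1). Leaving out single pools gave 1 to 9 risen enzymes: Extl1 alone rose without day 6 replicate 2, Extl1 and Slc26a2 rose without day 6 replicate 3, and 4 enzymes rose without unfractured replicate 2. Against day 2, 2 of the 28 enzymes rose at day 6 and 0 fell, where 1.31% and 0.109% of all genes did so. These were again Extl1 and Slc26a2, tested only because the day 6 pools detected them, so nothing is read from that count. Of the 21 enzymes with probes detected on all 9 arrays, 0 passed in that comparison. In that comparison the day 6 pools lay above all day 2 pools for 10 of the 28 and below them for 0, against 11.8% and 13.2% of all genes, and the change was above 0 for 24 of the 28, against 46.0% of all genes; 9 of the 28 and 11.6% of all genes had an unadjusted limma p under 0.05. With replicate number as a block the same 2 enzymes rose, and 89 of all genes passed instead of 143. At day 2 against unfractured 0 of the 28 passed, as did 0% of all genes, while 5 of the 28 and 16.1% of all genes had an unadjusted limma p under 0.05 and 15 of the 28 and 54.3% of all genes had a change above 0. The number above 0 was 23 of 28 at day 2 with arrays scaled to their median, as 8 enzymes turned sign. The median of all genes was then 0.83, and 19 of the 28 lay above that median, against 15 in the quantile-normalised values. The 2 comparisons with unfractured share the same 3 unfractured pools.

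**Figure D1:**
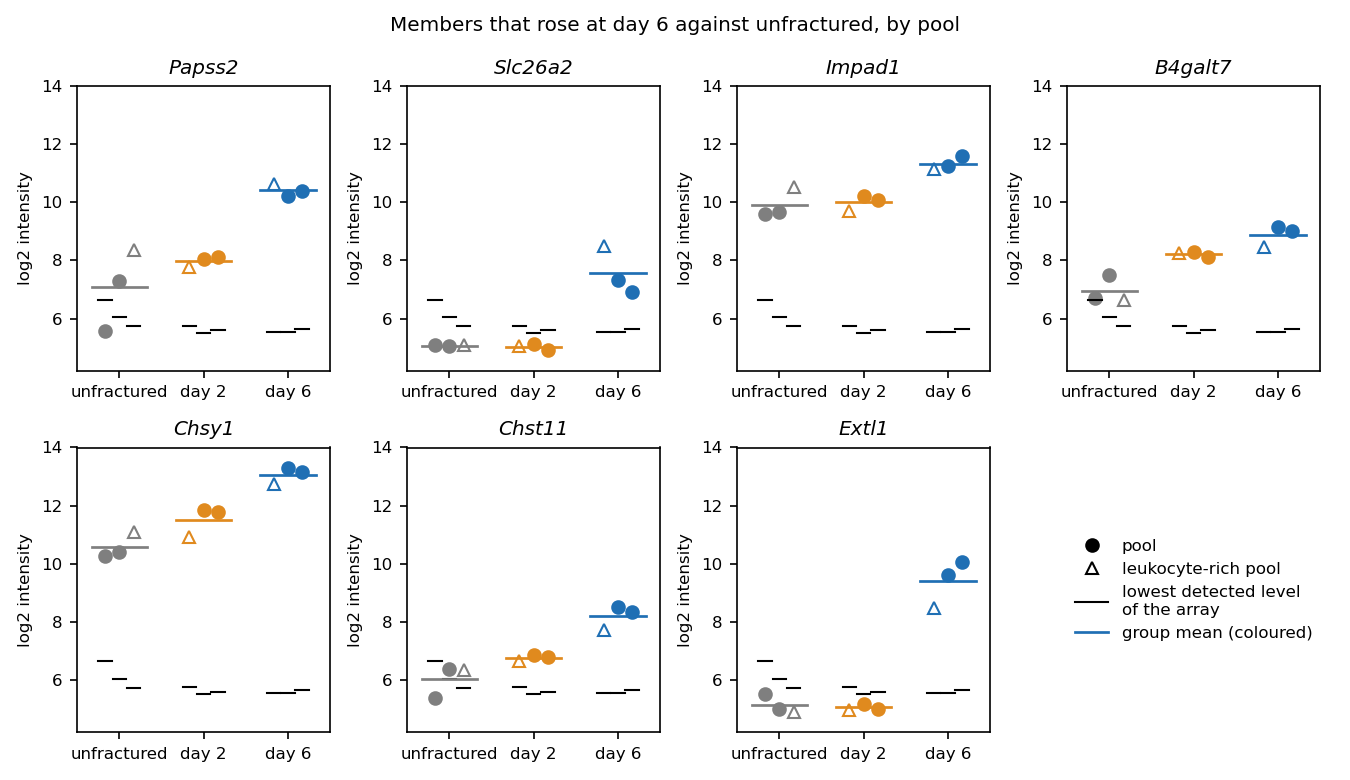
Log2 intensity (vertical axes) of the 7 enzymes that rose at day 6 against unfractured, 1 panel per gene and 1 symbol per pool, in the order unfractured, day 2 and day 6. Triangles mark the leukocyte-rich pools, coloured lines the group means of 3 pools and short black lines the lowest detected level of each array; Slc26a2 and Extl1 lie under that level in the unfractured and day 2 pools.

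The stretches upstream of the gene start are shown for B4galt7, Chsy1 and Extl1, risen genes whose annotated start coincides with a RefSeq promoter entry (GRCm38.p6); they are the 250 bases before the start, 5′ to 3′ on the strand of the gene. They lie at chr13:55599646-55599895 on the plus strand (B4galt7), chr7:66109242-66109491 on the plus strand (Chsy1) and chr4:134372548-134372797 on the minus strand (Extl1). Capitals mark the letters GGGCGG, read on either strand and known as the GC box.
B4galt7: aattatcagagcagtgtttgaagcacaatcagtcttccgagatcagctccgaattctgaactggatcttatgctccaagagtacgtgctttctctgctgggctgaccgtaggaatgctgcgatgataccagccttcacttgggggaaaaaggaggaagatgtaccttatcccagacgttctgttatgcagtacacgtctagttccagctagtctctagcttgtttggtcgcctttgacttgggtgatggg
Chsy1: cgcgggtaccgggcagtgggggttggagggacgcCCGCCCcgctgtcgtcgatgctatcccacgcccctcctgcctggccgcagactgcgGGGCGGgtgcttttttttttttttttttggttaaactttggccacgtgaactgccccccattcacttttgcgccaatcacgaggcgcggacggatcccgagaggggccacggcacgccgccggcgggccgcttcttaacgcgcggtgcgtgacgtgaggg
Extl1: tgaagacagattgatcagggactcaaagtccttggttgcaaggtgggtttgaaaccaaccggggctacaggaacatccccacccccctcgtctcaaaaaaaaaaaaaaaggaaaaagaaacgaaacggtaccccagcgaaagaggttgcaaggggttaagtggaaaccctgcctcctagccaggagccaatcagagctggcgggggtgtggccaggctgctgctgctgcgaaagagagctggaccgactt

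The Chsy1 window held 65.6% G and C, the Extl1 window 53.2% and the B4galt7 window 48%, beside a median of 52.4% over all windows. The 2 GC boxes of Chsy1 began 216 and 160 bases before the start, and neither B4galt7 nor Extl1 had one in the window. A promoter entry was found for 21 of the 28 tested enzymes and for 5 of the 7 that rose. GGGCGG stood in 3 of the 6 windows of risen enzymes and in 14 of the 19 windows of the other enzymes, and in 32.7% of all 32851 windows. The letters ACAAAG or ACAATG, which SOX factors are known to bind, stood in 0 of 6 and 2 of 19 windows, and in 25.2% of all windows. TATAAA stood in 0 of 6 and 0 of 19, and in 12.4% of all windows. Both strands were read, and these motifs do not overlap each other in letters. The absence of a motif says only that its letters are not in these windows.

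Sulfate supply was the role with the highest median change at day 6, 1.96 on the log2 scale over its 4 enzymes (1.42 with Slc26a2 at its lower bound). Of the 4, 3 rose, among them Slc26a2, which was tested only because the day 6 pools detected it. Beside this and the role counts below, 2.19% of all genes rose. Papss2 makes PAPS, the sulfate donor, from sulfate and ATP, and is the form of the enzyme known for cartilage. Its log2 intensity was 5.57, 7.28 and 8.37 in the unfractured group, 7.76, 8.05 and 8.13 in the day 2 pools and 10.62, 10.22 and 10.39 in the day 6 pools. The day 6 pools stood above all others, and the unfractured pools differed widely, with the lowest of them undetected. Papss2 was higher at day 6 than in unfractured pools by 3.34 ± 0.59 (log2 change ± SE, n = 3 each, limma adjusted p = 0.0223). Its change against day 2 was 2.43 ± 0.59, which did not pass (adjusted p = 0.107).

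Slc26a2 is the sulfate transporter of the plasma membrane, whose loss in humans causes diastrophic dysplasia, a disorder of cartilage. It was detected in none of the unfractured pools (log2 intensity 5.08, 5.04 and 5.10) or day 2 pools (5.05, 5.11 and 4.93), and in all day 6 pools (8.49, 7.32 and 6.92). The leukocyte-rich day 6 pool was the highest of the 3. Measured means were 7.58 ± 0.82 at day 6 and 5.07 ± 0.03 in unfractured pools (SD, n = 3 each). Against the lowest level detected on the unfractured arrays, the day 6 level was at least 2.70-fold higher. Against day 2, with a mean of 5.03 ± 0.09, the day 6 level was at least 3.89-fold higher. Such bounds set the mean of the bright group against the lowest detected level of each array in the dim group. The fitted changes, which use the undetected readings, had a limma adjusted p of 0.0127 against unfractured and 0.0136 against day 2. These p-values belong to the fitted changes and not to the bounds. Slc26a2 was tested only because the day 6 pools detected it, so nothing is read from them.

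Impad1 encodes the Golgi phosphatase that clears the phosphorylated nucleotide left over when PAPS has given up its sulfate. Its log2 intensity was 9.60, 9.66 and 10.51 in the unfractured group, 9.71, 10.20 and 10.09 at day 2 and 11.15, 11.26 and 11.58 at day 6. No day 6 pool overlapped with either earlier group. The change at day 6 against unfractured was 1.41 ± 0.31 (adjusted p = 0.0487), close to the threshold, and passed in 8 of 21 alternative settings. Papss1, the other PAPS synthase, had 11.36, 11.78 and 12.15 in the unfractured group, 11.34, 11.86 and 12.06 at day 2 and 12.34, 12.76 and 12.87 at day 6. Its day 6 pools also lay above the other 6, with a change of 0.89 ± 0.30 that did not pass (limma adjusted p = 0.147).

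The linker enzymes had a median change of 1.21 at day 6, and 1 of the 5 tested rose. B4galt7, which adds the first galactose of the linker, had log2 intensities of 6.70, 7.51 and 6.64 in the unfractured group, 8.25, 8.28 and 8.10 at day 2 and 8.47, 9.14 and 9.00 at day 6. The groups did not overlap in any of the 3 comparisons. The change was 1.92 ± 0.30 at day 6 against unfractured (limma adjusted p = 0.0165), 1.26 ± 0.30 at day 2 against unfractured (adjusted p = 0.186) and 0.66 ± 0.30 at day 6 against day 2 (adjusted p = 0.446).

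B3gat3, which places the glucuronic acid that completes the linker, had 5.39, 6.21 and 7.40 in the unfractured group, 7.88, 6.86 and 7.37 at day 2 and 7.83, 7.45 and 7.76 at day 6, a day 6 change of 1.35 ± 0.49 that did not pass (adjusted p = 0.167). Its second probe, detected in 3 day 6 pools and 1 unfractured pool, gave 1.67 ± 0.35 and passed (adjusted p = 0.0464 over all probes), so the 2 probes differ in their call. B3galt6 adds the second galactose and was the enzyme with the widest spread among unfractured pools, with 5.67, 7.67 and 8.82 there against 8.17, 8.13 and 8.38 at day 2 and 8.13, 8.79 and 8.87 at day 6. Its day 6 change of 1.21 had a 95% interval of -0.31 to 2.73. Fam20b, the kinase that phosphorylates the linker xylose, had 9.51, 10.16 and 10.68 at day 6 and 9.42, 9.18 and 9.36 in unfractured pools, and did not pass (0.80 ± 0.34, limma adjusted p = 0.230). Xylt2, a xylosyltransferase that begins the linker, had a change of 0.52 (95% interval -0.33 to 1.38). The other xylosyltransferase, Xylt1, had 4.82 to 5.07 in the unfractured group, 4.85 to 5.41 at day 2 and 5.79, 6.16 and 5.07 at day 6. It was detected on 2 of the day 6 arrays and on none of the others.

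**Figure D2:**
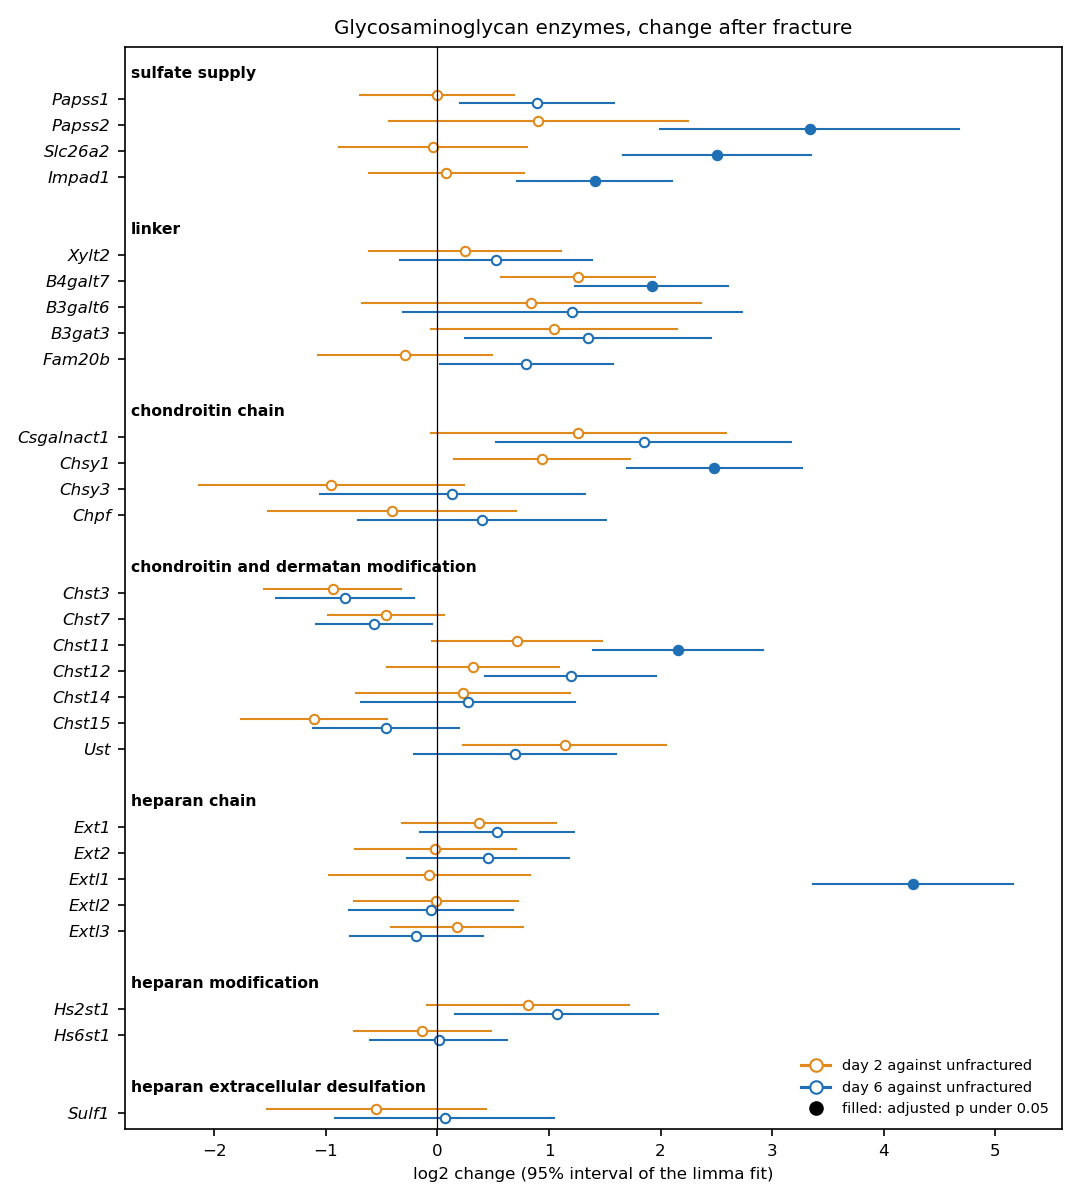
Log2 change of the 28 tested enzymes after fracture (horizontal axis) with the 95% interval of the limma fit, grouped by role, for day 2 (orange) and day 6 (blue) against the same unfractured pools. Filled symbols passed at an adjusted p under 0.05: 7 at day 6 and 0 at day 2.

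Among the enzymes that polymerise chondroitin, the median change at day 6 was 1.12 and 1 of 4 rose. Chsy1, a chondroitin synthase, had log2 intensities of 10.26, 10.39 and 11.11 in the unfractured group, 10.93, 11.85 and 11.79 at day 2 and 12.75, 13.30 and 13.15 at day 6. Each day 6 pool lay above every earlier pool, while the day 2 pools overlapped with the unfractured ones. The change was 2.48 ± 0.35 at day 6 against unfractured, a 5.59-fold difference (limma adjusted p = 0.00984), and 1.55 ± 0.35 against day 2 (adjusted p = 0.0822). A second Chsy1 probe was detected in 3 day 6 pools and 0 unfractured pools and did not pass (limma adjusted p = 0.0815 over all probes).

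Csgalnact1 adds the N-acetylgalactosamine that commits a linker to chondroitin. Its values were 8.71, 9.46 and 9.70 in the unfractured group, 9.10, 11.28 and 11.28 at day 2 and 10.73, 11.48 and 11.21 at day 6. The leukocyte-rich day 2 pool, at 9.10, lay in the unfractured range, and the other day 2 pools in the day 6 range. The change at day 6 against unfractured was 1.85 ± 0.58 (adjusted p = 0.124) and passed without the leukocyte-rich pools, at 2.26 ± 0.29 (limma adjusted p = 0.00641). Chsy3 and Chpf, partners in chain polymerisation, had changes of 0.13 (95% interval -1.06 to 1.32) and 0.40 (95% interval -0.71 to 1.51). Both had their lowest value of a group in the leukocyte-rich pools of day 2 (5.93 and 7.23) and day 6 (6.79 and 8.10).

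Of the 7 tested enzymes that sulfate chondroitin and dermatan, 1 rose and 0 fell at day 6, with a median change of 0.27. Chst11 places sulfate on carbon 4 of the N-acetylgalactosamine of chondroitin, and mice that lack it have disordered growth plates. Its log2 intensity was 5.39, 6.39 and 6.35 in the unfractured group, 6.65, 6.85 and 6.78 at day 2 and 7.72, 8.53 and 8.36 at day 6, so that the 3 groups did not overlap. One unfractured value was below detection. The change was 2.16 ± 0.34 at day 6 against unfractured (limma adjusted p = 0.0158), 1.44 ± 0.34 at day 6 against day 2 (adjusted p = 0.0938) and 0.71 ± 0.34 at day 2 against unfractured (adjusted p = 0.333). Chst12, another chondroitin 4-O-sulfotransferase, had 9.89, 9.34 and 9.58 at day 6 and 8.71, 8.25 and 8.26 in unfractured pools, which do not overlap, and did not pass (1.19 ± 0.34, adjusted p = 0.0995).

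The 6-O-sulfotransferases had log2 changes below 0 in the quantile-normalised values. Chst3 had 7.69, 7.31 and 7.56 in the unfractured group, 6.59, 6.90 and 6.24 at day 2 and 6.41, 7.04 and 6.61 at day 6. Every pool after fracture was lower than every unfractured pool, with changes of -0.94 ± 0.27 at day 2 (adjusted p = 0.227) and -0.83 ± 0.27 at day 6 (limma adjusted p = 0.138), neither of which passed. A second Chst3 probe changed by -0.29 at day 6. Chst7, of the same specificity, had 9.17, 9.43 and 9.53 in the unfractured group, 8.84, 9.07 and 8.84 at day 2 and 9.00, 8.54 and 8.88 at day 6. Both groups after fracture again lay below the unfractured pools, and the changes of -0.46 ± 0.23 and -0.57 ± 0.23 did not pass (adjusted p = 0.353 and 0.204). With arrays scaled to their median both Chst7 changes turned positive, to 0.59 at day 2 and 0.32 at day 6.

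Chst15 adds a further sulfate to 4-sulfated units. It had 9.30, 8.80 and 8.71 in the unfractured group, 8.16, 7.56 and 7.77 at day 2 and 8.87, 8.28 and 8.28 at day 6, so the day 2 pools were the lowest. Its day 2 change of -1.11 ± 0.29 did not pass (limma adjusted p = 0.197) and passed without the leukocyte-rich pools, where 9.99% of all genes did so in that direction. Ust, which sulfates the uronic acid, had 5.00, 5.09 and 6.25 in the unfractured group, 6.03, 6.96 and 6.77 at day 2 and 6.47, 6.08 and 5.89 at day 6. It was detected in 1 of the 3 unfractured pools. By group means it was the only one of the 28 with the order unfractured, day 6, day 2, which 21.1% of all genes had. Chst14, the dermatan 4-O-sulfotransferase, changed by 0.27 at day 6 (95% interval -0.69 to 1.23). At day 2 against unfractured the pools did not overlap for 2 enzymes that were higher (B4galt7 and Chst11) and for 3 that were lower (Chst3, Chst7 and Chst15), against 10.9% and 7.69% of all genes.

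**Figure D3:**
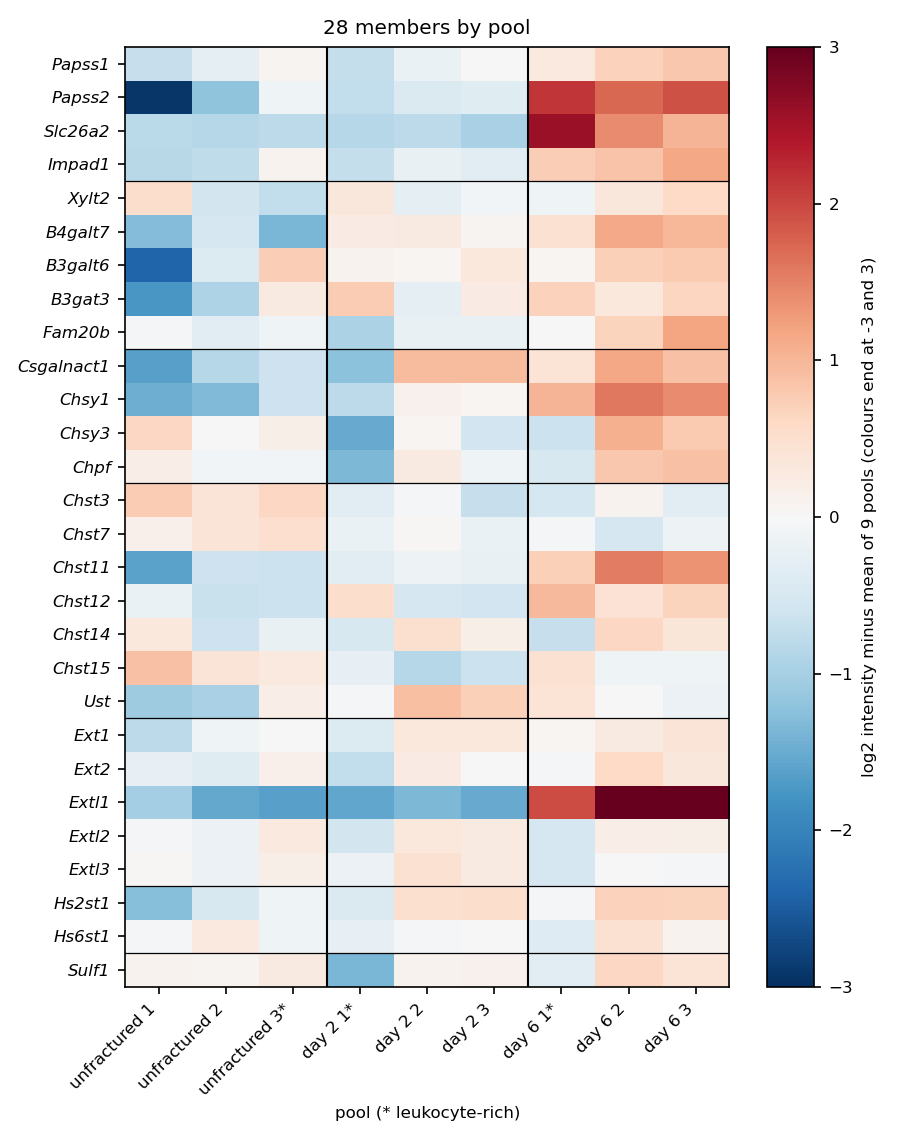
Log2 intensity of each of the 28 tested enzymes (rows, grouped by role) in each of the 9 pools (columns, asterisks for the leukocyte-rich ones), relative to the mean of that enzyme over the 9 pools; red is above that mean and blue below it. Extl1, Slc26a2 and Papss2 are the reddest rows at day 6, and Chst3 and Chst7 are paler or blue there.

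Of the 5 heparan chain enzymes tested 1 rose, Extl1, and the other 4 were detected in all 9 pools. Ext1 and Ext2 form the polymerase, Extl3 starts the heparan chain and Extl2 can end it. Their group means ran from 10.82 to 12.11 at day 6 and from 10.88 to 11.92 in unfractured pools, and the day 6 changes were 0.54, 0.45, -0.19 and -0.06 for Ext1, Ext2, Extl3 and Extl2. The 95% intervals of these 4 changes reached from -0.80 to 1.23.

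Extl1, which carries an N-acetylglucosaminyltransferase activity of heparan elongation, was undetected in every unfractured pool (log2 intensity 5.52, 4.99 and 4.89) and every day 2 pool (4.97, 5.19 and 5.02). The day 6 pools had 8.49, 9.63 and 10.08, with the leukocyte-rich pool the lowest. Measured means were 5.13 ± 0.34 in unfractured pools, 5.06 ± 0.12 at day 2 and 9.40 ± 0.82 at day 6 (SD, n = 3 each). By the bound, Extl1 was at least 9.55-fold higher at day 6 than in unfractured pools and at least 13.7-fold higher than at day 2. The fitted log2 changes, which use the undetected readings, were 4.26 and 4.34 (limma adjusted p = 0.0010 and 0.00087). Extl1 was tested only because the day 6 pools detected it, so nothing is read from these p-values. Every day 6 pool stood apart from the 6 earlier pools.

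Of the enzymes that modify heparan, Hs2st1, which sulfates the uronic acid, had 7.90, 8.69 and 9.05 in the unfractured group, 8.73, 9.65 and 9.69 at day 2 and 9.12, 9.87 and 9.85 at day 6. Its day 6 pools lay above all unfractured ones, and the change of 1.07 ± 0.40 did not pass (adjusted p = 0.180). Hs6st1, a heparan 6-O-sulfotransferase, changed by 0.01 (95% interval -0.60 to 0.63). Sulf1, an extracellular enzyme that removes sulfate from finished heparan chains, changed by 0.06 at day 6 (95% interval -0.92 to 1.05), and its lowest value, 9.87, was in the leukocyte-rich day 2 pool.

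Both enzymes of UDP-sugar supply were at or under the detection limit. Ugdh makes UDP-glucuronic acid, needed by all chains named here and by hyaluronan, and its probe read 4.87 to 5.71 and was detected on 1 array, at day 6. Uxs1, which makes UDP-xylose, was detected on none, nor were Glce and Dse, the epimerases of heparan and dermatan chains. Csgalnact2 was detected on 1 day 2 array, and Hs6st2 on 1 day 6 and 1 unfractured array. Over the 9 arrays Uxs1 read 4.59 to 4.94, Glce 4.90 to 5.65, Dse 4.61 to 5.28 and Csgalnact2 4.71 to 5.84. A probe that reads under its detection limit gives no level of the transcript.

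The leukocyte-rich pool was the lowest of its group for 21 of the 28 enzymes at day 6 and for 20 of 28 at day 2, where 49.8% and 51.3% of all genes had their lowest value. In the unfractured group it was the highest for 16 of 28, where 41.1% of all genes had their highest value. Without those 3 pools, in 2 pools per group, 16 of the 28 enzymes rose at day 6 against unfractured and 0 fell, beside 16.4% and 14.1% of all genes. The 7 named above were among the 16, with Papss1, B3gat3, Fam20b, Csgalnact1, Chpf, Chst12, Ust, Ext2 and Hs2st1. The median change of the 28 was then 0.96. Between the leukocyte-rich pools alone, 1 pool against 1 and with no test, the median difference was 0.16, and the 7 risen enzymes differed by 0.64 (Impad1) to 3.60 (Extl1). The 7 were picked by a fit that held these same pools, so their direction here is no separate support. Extl1 and Slc26a2 among them were tested only because the day 6 pools detected them.

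Between day 6 and day 2 the leukocyte-rich pools differed by a median of 0.59 over the 28 enzymes, and the other 6 pools by 0.59. Without the leukocyte-rich pools Chsy1 and Impad1 passed in that comparison beside Extl1 and Slc26a2, 4 of 28, where 2.44% of all genes rose and 1.04% fell. Extl1 and Slc26a2 were tested only because the day 6 pools detected them, so nothing is read from their part in that count. At day 2 against unfractured Chsy1, Csgalnact1, Hs2st1 and Ust rose and Chst15 fell in the same 6 pools, where 10.8% of all genes rose. The median over the 28 was 0.41 in those pools at day 2, and -0.48 between the leukocyte-rich pools. The part of the leukocyte transcripts in these differences was not tested.

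**Figure D4:**
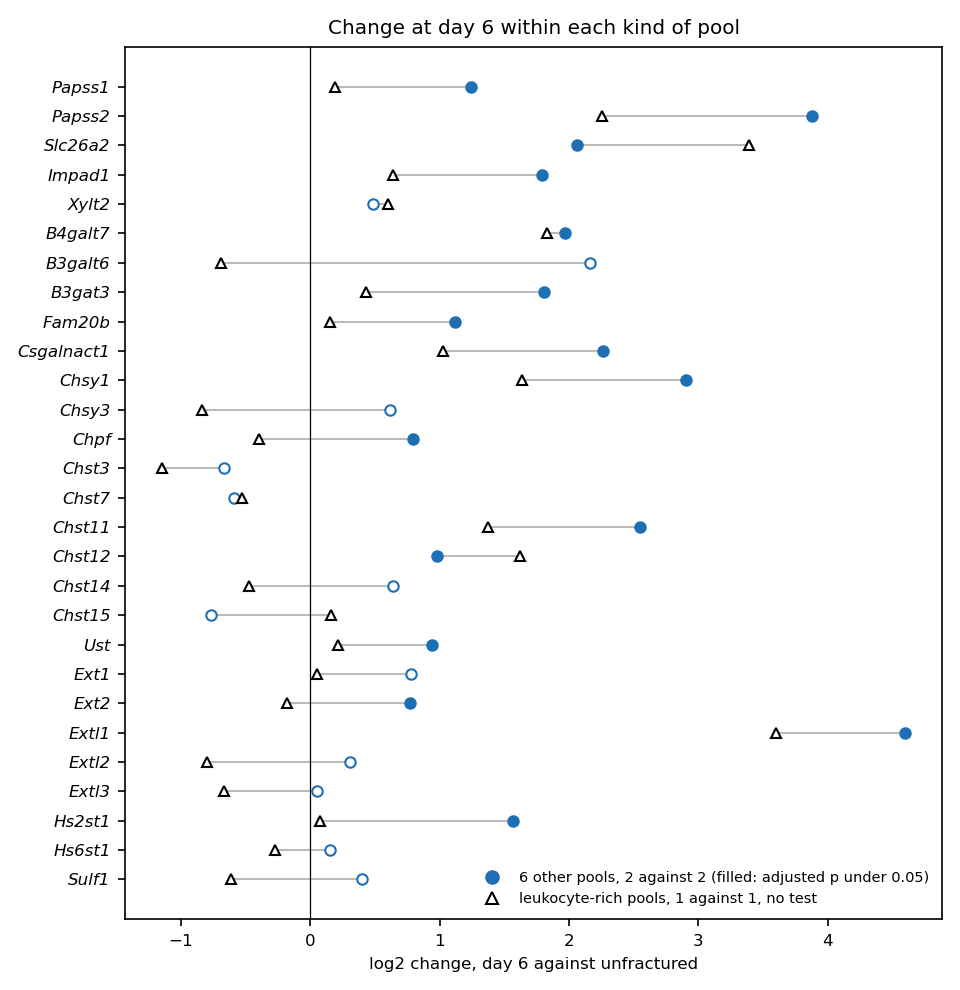
Log2 change at day 6 against unfractured (horizontal axis) of the 28 tested enzymes in the 6 pools without the leukocyte-rich ones (circles, 2 pools against 2, filled where the adjusted p was under 0.05) and between the leukocyte-rich pools (triangles, 1 against 1). Triangles lie left of the circles for most enzymes, and right of them for Slc26a2, Xylt2, Chst7, Chst12 and Chst15.

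By group means, 13 of the 28 enzymes had the order unfractured, day 2, day 6, which 20.4% of all genes had. A further 9 had the order day 2, unfractured, day 6, which 11.1% of all genes had. The median SD of the 28 between pools was 0.36 in the unfractured group, 0.40 at day 2 and 0.36 at day 6, beside 0.50, 0.35 and 0.28 over all genes. The widest spread at day 2 was that of Csgalnact1 (SD 1.26) and at day 6 that of Chsy3 (SD 0.92).

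As a list, cartilage transcripts were also higher at day 6, but not at day 2. The mean log2 intensity of 15 measured cartilage genes was 7.04 to 7.53 in the unfractured group, 6.45 to 6.76 at day 2 and 11.06, 11.96 and 12.20 at day 6. At day 6 against unfractured 11 of the 15 rose, beside 2.19% of all genes, and 2 had a change below 0. Col9a2, Matn1, Ucma and Mia lay under the lowest detected level of every unfractured and day 2 array. They were tested only because the day 6 pools detected them, so nothing is read from their part in that count. Of 20 cartilage genes with a probe, 15 to 18 were detected per day 6 pool and 7 to 8 per unfractured pool. The 9 endothelial genes averaged 8.10 to 10.26 at day 6 and 9.93 to 11.35 in unfractured pools. What part these cell types have in the enzyme values was not tested.

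Among the proteins that carry the chains, 3 of 20 tested core proteins rose at day 6 against unfractured and 0 fell, beside 2.19% and 0.625% of all genes. Their median change was 0.33, beside 0.04 over all genes. Aggrecan (Acan), the main chondroitin sulfate proteoglycan of cartilage, had log2 intensities of 4.86, 5.70 and 5.14 in unfractured pools, all undetected, 9.59, 9.28 and 7.52 at day 2 and 14.84, 14.92 and 15.09 at day 6. It was at least 449-fold higher at day 6 than in unfractured pools. Its fitted change, which uses the undetected readings, passed (limma adjusted p = 4.2e-05). Acan met the detection filter through the fractured pools alone, so nothing is read from that p-value or from its place among the 3. Cspg4, a chondroitin sulfate proteoglycan of the cell surface, had 10.51, 10.91 and 11.16 at day 6, against 9.37, 8.87 and 8.39 in unfractured pools, and rose by 1.98 ± 0.35 (adjusted p = 0.0228). Sdc3, a heparan sulfate carrier, had 13.14, 13.08 and 13.06 at day 6, against 10.34, 10.35 and 11.40 in unfractured pools (2.40 ± 0.47, adjusted p = 0.0329). Acan and Cspg4 also rose against day 2, by 6.16 ± 0.50 and 2.64 ± 0.35 (limma adjusted p = 0.000614 and 0.00846).

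In the supply of nucleotide sugars and their transport into the Golgi, 1 of 12 tested genes rose at day 6 against unfractured, beside 2.19% of all genes. It was Slc35a2, the UDP-galactose transporter, with a log2 intensity of 9.43, 9.09 and 9.89 in the unfractured group, 8.93, 9.51 and 9.64 at day 2 and 11.03, 11.26 and 11.55 at day 6. The change was 1.81 ± 0.30 against unfractured (limma adjusted p = 0.0189) and 1.92 ± 0.30 against day 2 (adjusted p = 0.0190). No gene passed at day 6 against unfractured among 12 of keratan sulfate synthesis and its core proteins (median change 0.50), 8 of hyaluronan synthesis and turnover (median -0.04), 10 of lysosomal glycosaminoglycan breakdown (median 0.40) and 4 other heparan and dermatan enzymes (median 0.08). At an unadjusted limma p under 0.05 these lists had 2, 1, 1 and 0 genes, where 21.0% of all genes had such a p. At day 2 against unfractured no gene of any of these lists passed, as did 0% of all genes. An unadjusted limma p under 0.05 was found there for 16.1% of all genes. In the lists it was found for 4 of 20 core protein, 0 of 12 nucleotide sugar, 3 of 12 keratan sulfate, 2 of 8 hyaluronan, 3 of 10 lysosomal and 1 of 4 other heparan and dermatan genes.

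**Figure D5:**
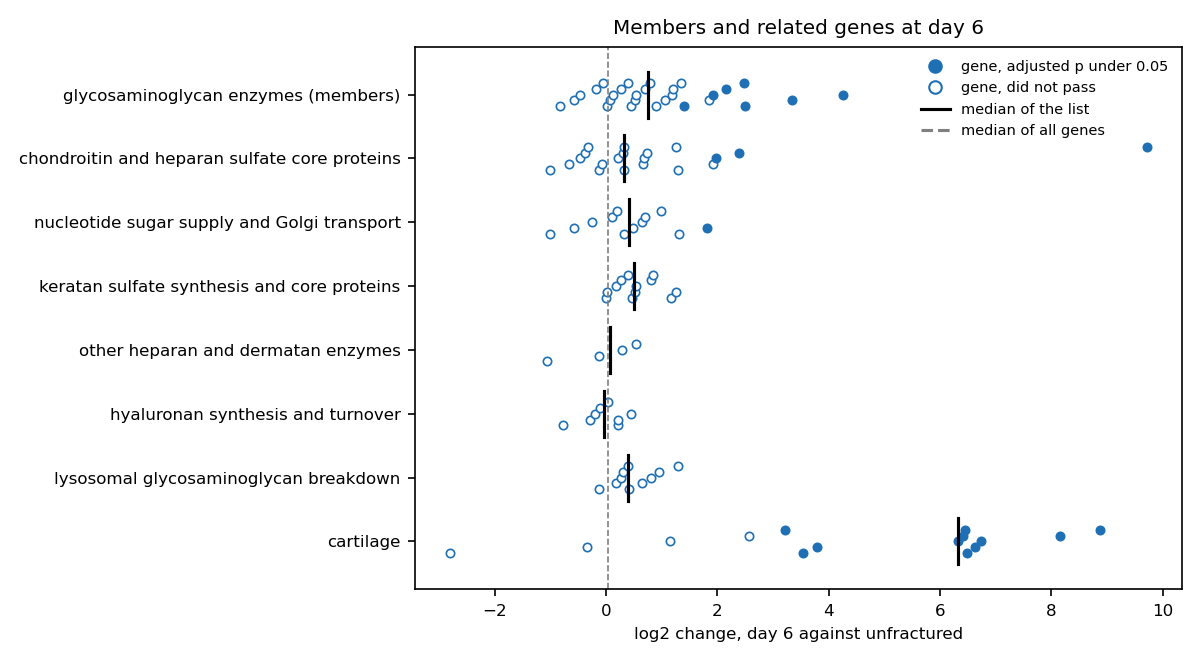
Log2 change at day 6 against unfractured (horizontal axis) of each tested gene in the enzyme set, in 6 related lists and in the cartilage list, with the median of each list (black line) and of all genes (dashed line, 0.04). Changes are those of the fit, also for genes undetected in the unfractured pools such as Acan. Such genes passed the detection filter through the fractured pools alone, so nothing is read from their filled symbols. Filled symbols passed: 7 of 28 enzymes, 3 of 20 core proteins, 1 of 12 nucleotide sugar genes, 11 of 15 cartilage genes and 0 in the other lists.

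Part of the signs depended on the scaling. With arrays scaled to their median instead of quantile-normalised, the median of all genes moved to 0.71 at day 6 against unfractured and that of the 28 enzymes lay 0.80 above it, against 0.71 above the gene median in the quantile-normalised values. The signs of Chst7, Chst15, Extl2 and Extl3 turned to positive there, while that of Chst3 stayed negative. At day 2 against unfractured the gene median moved to 0.83 and the signs of Papss1, Fam20b, Chpf, Chst7, Ext2, Extl2, Hs6st1 and Sulf1 turned to positive, and at day 6 against day 2 that of Chst14 turned. Under median scaling all genes that passed at day 6 against unfractured split into 264 higher and 7 lower, instead of 221 and 63.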

How the data were processed

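Intensities of 9 Illumina bead arrays were used, 1 per pool. Per the file headers, the authors deposited non-normalised intensity per probe with a detection p-value, exported from GenomeStudio per the submitters' processing notes; a second deposited table holds normalised linear intensity. Genome build and probe positions are not given in the sources used here.

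Background correction used normexp from the detection p-values, offset 16, with quantile normalisation and log2 (neqc, limma 3.58.1, R 4.3.3). Probes detected (p under 0.05) on at least 3 arrays were kept, 14519 of 25697, of which 1719 carried no symbol before filtering; the brightest probe stood for a gene (10073 genes). A model with a mean for each group was fitted over the 9 arrays together (lmFit, eBayes, 6 residual degrees of freedom), two-sided, Benjamini-Hochberg adjusted over all genes. "Rose" and "fell" mean an adjusted p under 0.05. With 3 arrays per group, precision is limited, and p-values rest on the spread between pools.

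The members, lists and groups of pools were chosen with earlier results of these data known. Named are all members (those under the detection filter by their range), and up to 3 passing genes of each related list per comparison. Same-numbered pools of day 6 and day 2 deviated together (correlations 0.63, 0.52 and 0.51), but so did day 6 replicate 2 with day 2 replicate 3 (0.57) and day 6 replicate 3 with day 2 replicate 2 (0.33), so the number is not singled out. For the other pairs of groups same-numbered correlations ran from -0.31 to 0.40; the labels do not say that numbers pair pools. Replicates correlated at 0.854 to 0.990, and no columns were identical.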

Additional observations from a re-analysis of the deposited data

How the results depend on the processing

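Each comparison was repeated under 21 alternatives, 9 of which leave out 1 pool. The gene counts beside the enzyme counts hold all genes that passed, higher or lower. At day 6 against unfractured 3 enzymes rose with probes detected on all 9 arrays, of 21 enzymes tested, without Slc26a2 and Extl1. There 186 of 6503 genes passed, 114 of them higher. With only the 2 groups compared in the fit 3 enzymes rose (139 genes, 114 higher). Without the 3 leukocyte-rich pools 16 rose (3068 genes, 1652 higher). The other alternatives that keep all pools gave 6 or 7. Leaving out 1 pool gave 1 to 9 enzymes and 53 to 1568 genes: 1 without day 6 replicate 2 (Extl1), 2 without day 6 replicate 3 (Extl1 and Slc26a2) and 4 without unfractured replicate 2. Extl1 passed in 20 of 20 alternatives that could test it, Slc26a2 in 18 of 20, Chsy1 in 19 of 21, Chst11 in 17 of 20, B4galt7 in 17 of 21, Papss2 in 15 of 20 and Impad1 in 8 of 21, with adjusted p of up to 0.0107, 0.0589, 0.0672, 0.0945, 0.0951, 0.108 and 0.210. Extl1 and Slc26a2 were tested only because the day 6 pools detected them. Nothing is read from how often these genes passed, here or at day 6 against day 2. At day 6 against day 2 the enzymes that rose were 5 with quantile normalisation alone, 4 with the deposited values (Slc26a2 no longer among them), 0 with probes detected on all 9 arrays (60 genes; neither Extl1 nor Slc26a2 tested), 4 with only the 2 groups (216 genes) and 4 without the leukocyte-rich pools (351 genes). Median scaling left 80 genes and the replicate block 89 of 143, with Extl1 and Slc26a2 still passing; the block changed no other count by over 1.5 times. Leaving out 1 pool gave 1 to 4 enzymes and 47 to 189 genes; Slc26a2 was lost without day 2 replicate 2, day 2 replicate 3 or day 6 replicate 2. At day 2 against unfractured 4 enzymes rose and 1 fell without the leukocyte-rich pools (2095 genes), and leaving out 1 pool gave 0 to 2 risen enzymes and 0 to 924 genes, 2 and 924 without unfractured replicate 3. Day 2 changes near 0 turned sign as single pools were left out: Impad1 (0.08) ran from -0.084 to 0.37, negative without unfractured replicate 1, unfractured replicate 2 (-0.05) or day 2 replicate 2 (-0.02); Extl1 (-0.07) from -0.19 to 0.12, positive without unfractured replicate 1; Slc26a2 (-0.04) from -0.083 to 0.0086, positive without day 2 replicate 3. The cause of these changes was not tested. Under median scaling the gene median was -0.13 at day 6 against day 2.

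Limits are the 3 pools per group, dim probes near the detection level for Slc26a2, Ust, B3gat3 and Chst11, 1 probe for most genes, and the lack of unfractured pools collected at day 6.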
